A study of Mus musculus with 16 samples.

Results

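Proximal airway epithelium genes are followed here by 7 listed symbols: Sox2, Trp63, Krt15, Scgb3a2, Scgb1a1, Cyp2f2 and Foxj1. They were taken by name from the 57180 genes of the count tables, whatever their values, and each was found once. All 7 are protein-coding, on 6 chromosomes (Sox2 on chromosome 3, Cyp2f2 on 7, Foxj1 and Krt15 on 11, Trp63 on 16, Scgb3a2 on 18 and Scgb1a1 on 19).

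Whole lungs of mouse fetuses were collected at embryonic stage E14.5 and their poly(A) RNA was sequenced in 16 libraries. The strains were C57BL/6J (B6) and A/J, and the study's design text gives the animals as male. Dams received BMS493 by mouth at 3.75 µg per g per day from E9.5 to E14.5, or corn oil, the vehicle, which forms the control groups. BMS493 is an inverse agonist that acts on every retinoic acid receptor (RAR). The 4 groups of 4 libraries were thus B6 control, B6 BMS493, A/J control and A/J BMS493. The labels give no engineered allele for any group, and the mother was dosed, not the fetus directly. Litter membership is not given in the labels, and p-values therefore measure only the spread between these libraries.

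As background, the lung epithelium splits during branching into a proximal compartment, the future airways, and a distal compartment, the future alveoli. Sox2 marks the proximal progenitors, which later give rise to secretory (club) cells, multiciliated cells, neuroendocrine cells and basal cells. The secretory and multiciliated fates are separated by Notch signalling, and retinoic acid takes part in the early shaping of the lung bud and its airways.

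The libraries held 15207539 to 24146224 fragments assigned to genes (median 20566521). Both strains were counted on the same build, GRCm39, and not on a genome of each strain. Multimapping fragments made up 3.90 ± 0.134% in A/J and 3.16 ± 0.156% in B6 libraries, and assigned fragments 73.5 ± 1.43% and 75.8 ± 0.935% (SD, n = 8). How far mapping enters the strain differences below was not tested. Values are normalised read counts (CPM, counts scaled to the total assigned to genes in the library, after TMM scaling), with means ± SD over 4 libraries. The labelled tissue was supported by its markers: Nkx2-1, the lung and thyroid transcription factor, lay between 161.5 and 312.5 CPM, and Epcam, an epithelial adhesion protein, between 170.6 and 272 CPM. The treatment was visible in RAR targets: Cyp26b1, a retinoic acid hydroxylase, averaged 18.2 CPM in B6 control and 1.47 CPM in B6 BMS493 lungs, and 19.9 and 1.05 CPM in A/J. Some libraries stood apart. B6 BMS493 replicate 2 was the highest of the 16 libraries for 13.8% of all 17276 genes tested, and for 19 of 24 tested genes of a pan-epithelial list and 11 of 13 of a surfactant and alveolar list. B6 BMS493 replicate 3 was the highest for 15.95% of all genes, for 3 of the 24 and for 0 of the 13, and A/J control replicate 4 for 13.77% of all genes. The strain comparison calls of the members given below held without each of these libraries.

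The summed CPM of the pan-epithelial list was 1583 to 1639 in B6 control, 1606 to 2395 in B6 BMS493, 1205 to 1474 in A/J control and 1323 to 1509 in A/J BMS493 libraries. That of the surfactant and alveolar list was 537 to 651, 447 to 1432, 282 to 384 and 328 to 412. Both sums were lower in A/J than in B6 controls without overlap, and both spread most in B6 BMS493. In whole lung a lower value can mean fewer cells of a type or less RNA per cell, and these cannot be told apart.

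Promoter sequences are shown for the 2 members that the RefSeq table of build GRCm38.p6 holds, Sox2 and Cyp2f2, because retinoic acid receptors and the lung factor NKX2-1 are known to act through short DNA motifs. Each run is the 250 bases before the start of the gene on the plus strand, 5′ to 3′, at chr3:34649745-34649994 for Sox2 and chr7:27119705-27119954 for Cyp2f2. The deposited counts refer to another build, GRCm39, and the positions were not converted. Capitals mark matches, on either strand, to AGGTCA (the nuclear receptor half-site), CAAGTG (an NK2 homeodomain core) and TGTTTAC (a forkhead core).
Sox2: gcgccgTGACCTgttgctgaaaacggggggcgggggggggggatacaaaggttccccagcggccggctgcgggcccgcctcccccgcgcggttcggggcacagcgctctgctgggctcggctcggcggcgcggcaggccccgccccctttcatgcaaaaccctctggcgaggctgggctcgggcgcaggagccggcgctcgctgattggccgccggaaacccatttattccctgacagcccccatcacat
Cyp2f2: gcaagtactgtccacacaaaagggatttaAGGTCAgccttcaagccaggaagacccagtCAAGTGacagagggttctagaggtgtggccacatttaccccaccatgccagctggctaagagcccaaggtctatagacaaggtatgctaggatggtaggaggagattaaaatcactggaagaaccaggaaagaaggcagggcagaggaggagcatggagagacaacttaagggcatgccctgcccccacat
The Sox2 window, with 72% G and C, held 1 AGGTCA, read on the opposite strand 244 bases before the start. The Cyp2f2 window, with 51.6% G and C, held AGGTCA 221 bases and CAAGTG 191 bases before the start. Neither held TGTTTAC, which says only that these letters are not in these windows. Of 27025 windows of the same length, 13.8% held AGGTCA, 11.6% CAAGTG and 3.09% TGTTTAC on either strand. A match is a description of the letters and not a binding site.

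Per kilobase of exon, Scgb3a2 and Sox2 were the highest members in B6 control lungs, at 16.6 and 10.97 CPM per kb. Krt15 followed at 3.55, Cyp2f2 at 1.09 ± 0.352, Foxj1 at 1.085 ± 0.247 and Trp63 at 0.186 CPM per kb (SD, n = 4). Cyp2f2 and Foxj1 are neighbours in this order that did not differ beyond their spread. The place of Cyp2f2 can also depend on the column of counts used, which gave it 329 counts against 602 in the summed stranded columns. In A/J control lungs Sox2 led at 10.2 CPM per kb, and Krt15 at 2.38 and Scgb3a2 at 2.12 were close to each other, with Cyp2f2 last among the tested members at 0.0799 CPM per kb. The plot of CPM by library shows the secretory and ciliated members low in both A/J groups, and Sox2 and Trp63 at overlapping levels in all 4 groups.

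**Figure D1:**
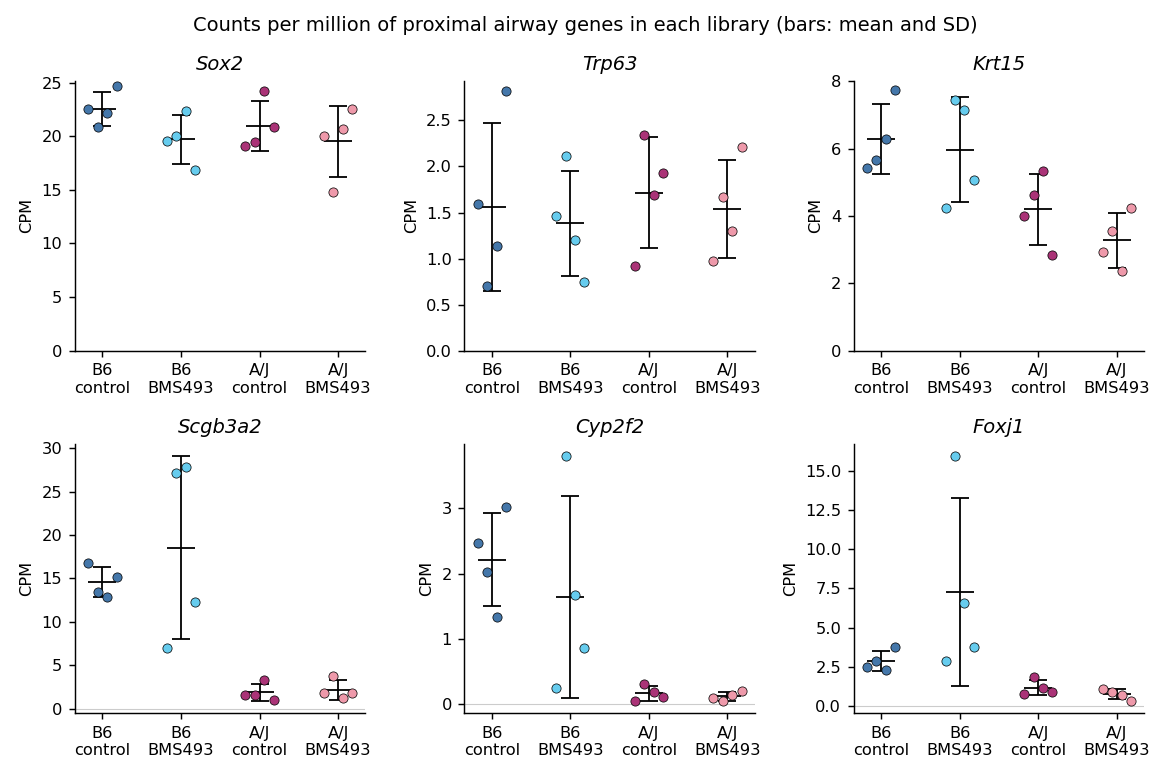
CPM (y axis, linear) of the 6 tested members in each library (points, replicates 1 to 4 from left to right) of the 4 groups, with bars for the mean and SD. Scgb3a2, Cyp2f2 and Foxj1 are low in both A/J groups and spread widely in B6 BMS493, and Sox2 and Trp63 overlap in all groups.

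Sox2 (ENSMUSG00000074637), the transcription factor of proximal airway progenitors, was the steadiest member across the 4 groups. Its CPM in replicates 1 to 4 was 22.5, 20.9, 22.2 and 24.6 in B6 control and 19.5, 20.04, 22.4 and 16.8 in B6 BMS493. In A/J it was 19.1, 19.5, 24.2 and 20.9 in control and 20.04, 14.8, 20.6 and 22.6 in BMS493. All 4 groups overlapped, and the group means lay between 19.5 ± 3.31 (A/J BMS493) and 22.6 ± 1.57 CPM (B6 control) (SD, n = 4). The log2 fold change with BMS493 was -0.20 in B6 (SE 0.11, 95% interval -0.43 to 0.04, adjusted p = 0.644 in edgeR's quasi-likelihood test) and -0.10 in A/J. Between the strains it was -0.11 in control (adjusted p = 0.583) and -0.01 in BMS493 lungs (adjusted p = 0.954).

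Trp63 (ENSMUSG00000022510) encodes p63, the defining factor of basal cells, and was the lowest tested member per length over all libraries. Its CPM was 1.60, 0.702, 1.14 and 2.82 in B6 control, 1.46, 2.11, 1.201 and 0.747 in B6 BMS493, 0.916, 2.34, 1.68 and 1.93 in A/J control, and 0.974, 1.67, 1.302 and 2.22 in A/J BMS493. The ranges of all groups overlapped, and no group stood above another. Each library held 13 to 54 counts of Trp63, and its interval for the strain difference in controls, 0.18 on the log2 scale (SE 0.39), was wide (adjusted p = 0.805). With BMS493 the values were -0.11 in B6 and -0.16 in A/J, neither called. Of the keratins of mature basal cells, named here after their values were seen, Krt5 had at most 7 counts and Krt14 at most 10 counts in any library.

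Krt15 (ENSMUSG00000054146), a keratin of basal cells and of early airway epithelium, was lower in A/J. Its CPM was 5.41, 5.66, 6.28 and 7.74 in B6 control against 4.003, 4.63, 5.33 and 2.84 in A/J control, and 4.24, 7.44, 7.14 and 5.05 in B6 BMS493 against 2.92, 3.56, 2.37 and 4.23 in A/J BMS493. Within each treatment the strains did not overlap, though the margin was small in both (the lowest B6 BMS493 library, replicate 1, was at 4.24 and the highest A/J one at 4.23). The log2 difference of A/J from B6 was -0.87 in BMS493 lungs (SE 0.22, adjusted p = 0.00501 in edgeR's quasi-likelihood test) and -0.56 in controls, where it missed the threshold (SE 0.21, adjusted p = 0.0694). With BMS493 Krt15 was at -0.06 in B6 and -0.37 in A/J, neither called. A fit that held the mean of the pan-epithelial list constant, added after the data were seen, left a strain difference of -0.13 in BMS493 lungs (adjusted p = 0.915). The Krt15 call held in each of the 8 fits without 1 library, and without B6 BMS493 replicate 2 it was -0.73 (adjusted p = 0.0288).

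Scgb3a2 showed the largest strain difference in control lungs among the tested members, Cyp2f2 left aside because its strain values are only a description. Scgb3a2 (ENSMUSG00000038791) encodes a secretoglobin made by airway secretory cells and their early precursors. Its CPM was 16.8, 13.4, 12.9 and 15.2 in B6 control and 1.59, 1.52, 3.32 and 1.02 in A/J control. With BMS493 it was 6.97, 27.2, 27.8 and 12.2 in B6 and 1.81, 3.78, 1.16 and 1.81 in A/J. Every B6 library was above every A/J library, and the widest spread was in B6 BMS493, where replicates 2 and 3 were above and replicates 1 and 4 below all B6 controls. The B6 mean was 7.83-fold the A/J mean in controls and 8.66-fold with BMS493, at log2 differences of -2.94 (SE 0.49, adjusted p = 0.000944) and -3.10 (SE 0.48, adjusted p = 0.000446). BMS493 itself gave 0.35 in B6 (adjusted p = 0.847) and 0.19 in A/J, neither called. Without B6 BMS493 replicate 2 the strain difference under BMS493 was -2.84, and without replicate 3 it was -2.86, both called. With the pan-epithelial list held constant the difference was smaller and still called, at -2.13 in control (adjusted p = 0.000268) and -1.53 in BMS493 lungs (adjusted p = 0.0331).

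Cyp2f2 (ENSMUSG00000052974), a cytochrome P450 of mature club cells, was close to the detection limit in A/J. Its CPM was 2.48, 2.02, 1.33 and 3.02 in B6 control (27 to 49 counts) and 0.0482, 0.303, 0.182 and 0.114 in A/J control (1 to 7 counts). With BMS493 it was 0.253, 3.81, 1.67 and 0.861 in B6 (5 to 90 counts) and 0.0928, 0.044, 0.140 and 0.202 in A/J (1 to 4 counts). The strains did not overlap within either treatment, although B6 BMS493 replicate 1 came near the A/J level. The gene passed the filter on low counts through its B6 libraries, so that a strain difference was a condition of being tested, and its strain values are a description. The B6 mean was 13.7-fold the A/J mean in controls and 13.8-fold with BMS493. The fitted log2 difference was -3.67 in control (SE 0.64) and -3.77 in BMS493 lungs (SE 0.69). With BMS493 Cyp2f2 was at -0.39 in B6 (adjusted p = 0.859), which was -1.28 (adjusted p = 0.428) without B6 BMS493 replicate 2 and -0.019 without replicate 1, and at -0.48 in A/J, neither called. With the pan-epithelial list held constant the B6 value was -1.92 (adjusted p = 0.0877). The strain difference under BMS493 was -2.88 without B6 BMS493 replicate 2, and -1.25 with the pan-epithelial list held constant, where it was past no threshold (adjusted p = 0.518).

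The Cyp2f2 values carry a limit of the counting. An antisense gene, Gm15883, shares 274 bases with Cyp2f2, 13.5% of the Cyp2f2 exon bases. The column without strand gave Cyp2f2 329 counts where the stranded columns together gave 602. Gm15883 had 4 and 276 counts in the same columns. The libraries held near equal counts in both stranded columns, so reads over the shared bases can be counted for both genes in the sum. Each of the other 6 members had the same total either way. With the stranded columns summed, an alternative added after the data were seen, the strain difference of Cyp2f2 was -3.18 in control and -3.82 in BMS493 lungs. These values can include reads of Gm15883.

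Scgb1a1 (ENSMUSG00000024653), the secretoglobin that defines mature club cells, had 1 count in all 16 libraries, in B6 control replicate 4 (0.0656 CPM). A count of 0 in the 4 libraries of a group allows up to 3 counts, or 0.0392 CPM in B6 BMS493, 0.036 in A/J control and 0.0351 in A/J BMS493, counting error only. It was removed by the filter and not compared.

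Foxj1 (ENSMUSG00000034227), the transcription factor that runs the motile cilia programme, spread widely between B6 BMS493 libraries. Its CPM was 2.48, 2.89, 2.27 and 3.74 in B6 control and 2.88, 15.9, 6.54 and 3.73 in B6 BMS493. In A/J it was 0.772, 1.82, 1.14 and 0.908 in control and 1.07, 0.880, 0.698 and 0.302 in BMS493. Every B6 library was above every A/J library, and in B6 the BMS493 range began within the control range and reached far above it through replicates 2 and 3.

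The log2 fold change of Foxj1 with BMS493 was 1.38 in B6 (SE 0.45, 95% interval 0.43 to 2.33), with an unadjusted p of 0.00755 and an adjusted p of 0.308 in edgeR's quasi-likelihood test, so it was not called. It was 0.62 (adjusted p = 0.602) without replicate 2, the library with the highest epithelial sums, and 1.65 (adjusted p = 0.052) without replicate 1. In A/J it was -0.65 and not called. The difference between these effects, -2.03 (SE 0.74), had an unadjusted p of 0.0151 and an adjusted p of 0.999. Against B6, Foxj1 was lower in A/J BMS493 lungs by a log2 difference of -3.30 (SE 0.52, adjusted p = 0.000259), which was -2.54 (adjusted p = 6.28e-06) without B6 BMS493 replicate 2 and -1.35 (adjusted p = 0.0463) with the pan-epithelial list held constant. In control lungs it was -1.26 (SE 0.51) and missed the threshold (adjusted p = 0.112), although the groups did not overlap. It passed when only those 8 libraries were fitted (adjusted p = 0.00167), and was -0.32 (adjusted p = 0.675) with the pan-epithelial list held constant.

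Counted over the 7 members, 0 were called with BMS493 in B6, where 0.423% of all tested genes were called in either direction, and 0 in A/J, where 0.486% were. DESeq2 also called 0 in each strain. The unadjusted p was under 0.05 for 1 member in B6 (Foxj1), beside 9.11% of all genes, and for 0 in A/J, beside 6.23%. The groups overlapped for every tested member in both strains, beside 4.71% of all genes in B6 and 4.87% in A/J whose groups did not.

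The mean effect over both strains called 0 members (1.37% of all genes), with 0 at an unadjusted p under 0.05 (10.8%). The difference of the effect between strains called 0 (0.00579% of all genes), with 1, Foxj1, at an unadjusted p under 0.05 (3.68%). DESeq2 called 0 in both. At these shares 0 calls among the 6 tested members is near the background.

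Between strains, 2 members were called lower and 0 higher in A/J control lungs, where 9.84% of all genes were called lower and 7.04% higher. In BMS493 lungs 4 were called lower and 0 higher, where 12.0% were called lower and 7.93% higher. Each count includes Cyp2f2, which was tested only through its B6 values, so nothing is read from its call. The groups did not overlap for 4 members in either comparison (Scgb3a2, Cyp2f2, Foxj1 and Krt15), beside 13.6% of all genes in control and 10.8% in BMS493 lungs that were lower in A/J without overlap. Sox2 and Trp63 were called in neither comparison. The comparisons draw on the same 16 libraries, so their counts are not independent of each other.

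**Figure D2:**
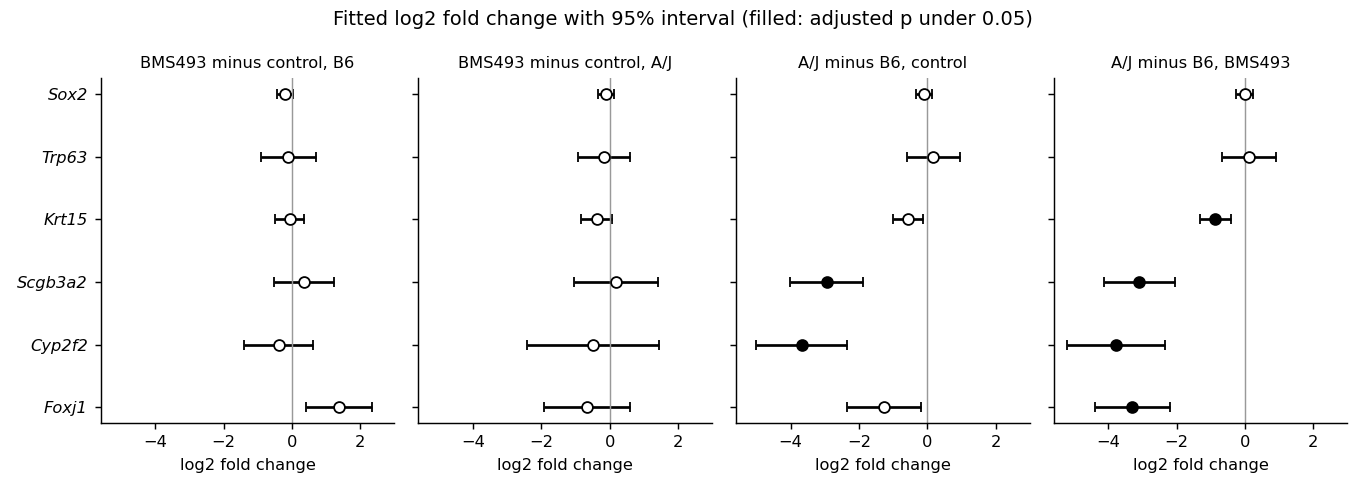
Fitted log2 fold change (x axis) with its 95% interval for the 6 tested members (rows) in 4 comparisons (panels), with filled points for an adjusted p under 0.05. No point is filled for BMS493 against control in either strain, 2 are filled for A/J against B6 in control lungs (Scgb3a2 and Cyp2f2), and 4 in BMS493 lungs (with Foxj1 and Krt15).

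The wider airway programmes were read from lists of known marker genes, by counts and medians. In control lungs 9.84% of all tested genes were called lower in A/J and 7.04% higher, and in BMS493 lungs 12.0% and 7.93%. These shares stand beside every list count of the main fit below. Other fits have other shares of all genes, given only where stated. Genes that are high in B6 and near 0 in A/J passed the filter through B6, so the counts describe the tested genes only. Of 28 secretory genes, 16 were tested, and 8 were called lower and 0 higher in A/J control lungs, with a median log2 difference of -0.79 beside 0.0081 for all genes. In BMS493 lungs 10 were lower and 0 higher, with a median of -0.93 beside 0.0032. Besides Cyp2f2 and Scgb3a2, the lowest were Hp (haptoglobin) at -2.42 in control (adjusted p = 3.28e-06) and -2.95 in BMS493 lungs (adjusted p = 1.31e-07), and Cbr2 (a carbonyl reductase of club cells) at -1.77 and -2.14 (adjusted p = 0.017 and 0.0045). Hp averaged 2.80 ± 0.448 CPM in B6 control and 0.519 ± 0.110 in A/J control. The Cbr2 value in control lungs lost its call without A/J control replicate 3 (-1.62, adjusted p = 0.0576) or 4 (-1.56, adjusted p = 0.0599), at a difference of about the same size. With the pan-epithelial list held constant Cbr2 was called in neither comparison, at -0.85 (adjusted p = 0.213) in control and -0.37 (adjusted p = 0.855) in BMS493 lungs. Without B6 BMS493 replicate 2, 8 secretory genes were called lower in BMS493 lungs, where 14.6% of all genes were called.

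Of 34 multiciliated genes, 24 were tested. In A/J control lungs 4 were called lower and 0 higher, with a median of -0.46, and in BMS493 lungs 9 lower and 0 higher, with a median of -0.60. In control lungs 2 were called without B6 control replicate 2 or without B6 control replicate 3. Over all 20 alternative fits the count called ran from 2 to 9 in control and from 2 to 14 in BMS493 lungs. Gmnc (geminin coiled-coil, at the top of the multiciliated programme) was at -2.35 in control lungs (adjusted p = 0.0011), from 1.79 ± 0.323 CPM in B6 to 0.338 ± 0.211 in A/J. In BMS493 lungs the highest A/J library, replicate 2 at 1.10 CPM of Gmnc, was above the lowest B6 library, replicate 3 at 0.934. Tppp3, a tubulin polymerisation gene, was at -0.35 in control lungs (adjusted p = 0.0219). The Tppp3 call was lost without B6 control replicate 2 or 3 or A/J control replicate 4 (-0.29 to -0.31, adjusted p of up to 0.0852), and with the pan-epithelial list held constant (-0.32, adjusted p = 0.135), at a difference of about the same size. Cfap126, a cilia and flagella associated gene, was at a fitted -1.42 in control lungs. It had 4 to 14 counts in the A/J libraries and passed the filter through B6, so this value is a description.

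In BMS493 lungs Deup1, which builds centrioles in multiciliated cells, was at a fitted -4.76 and Trp73, a relative of Trp63 upstream of Foxj1, at -4.29. Both had at most 5 counts in any A/J library and passed the filter through their B6 libraries, so these values are a description. Without B6 BMS493 replicate 2 they were -3.01 and -3.30. With the pan-epithelial list held constant they were -1.38 (adjusted p = 0.477) and -2.40 (adjusted p = 0.145), past no threshold. Deup1 was at 2.29 ± 3.16 CPM in B6 BMS493 and 0.0798 ± 0.0642 in A/J BMS493, and Trp73 at 2.14 ± 2.13 and 0.108 ± 0.101. Mcidas, the partner of Gmnc, lay at 2.67 ± 1.97 and 0.495 ± 0.156 CPM in the same groups. Mcidas, Rfx2 and Rfx3 are named here after their values were seen. The regulatory factors Rfx2 and Rfx3, which are also used by cells with a single cilium, were not called, at -0.04 (adjusted p = 0.888) and 0.12 (adjusted p = 0.378) in BMS493 lungs and 0.03 (adjusted p = 0.908) and 0.16 (adjusted p = 0.238) in control lungs. B6 BMS493 replicate 2 was the highest of all libraries for 15 of the 24 multiciliated genes, and without it 6 were called lower in BMS493 lungs.

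Dnah11, an outer dynein arm gene, was among the lowest by the count without strand, at -1.72 in control (adjusted p = 0.00039) and -2.75 in BMS493 lungs (adjusted p = 2.6e-07). That column gave Dnah11 886 counts where the stranded columns together gave 8463. The libraries held near equal counts in both stranded columns, so their sum can include reads of a gene on the opposite strand. Which gene those reads came from was not tested. With those columns summed the difference was -0.15 in control (adjusted p = 0.213) and -0.28 in BMS493 lungs (adjusted p = 0.0108). Neither column choice settles the Dnah11 value. The ratio of the column without strand to the summed columns was under 0.9 for 11 of 84 tested airway list genes, among them Dnah11, Cyp2f2 and Myb.

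**Figure D3:**
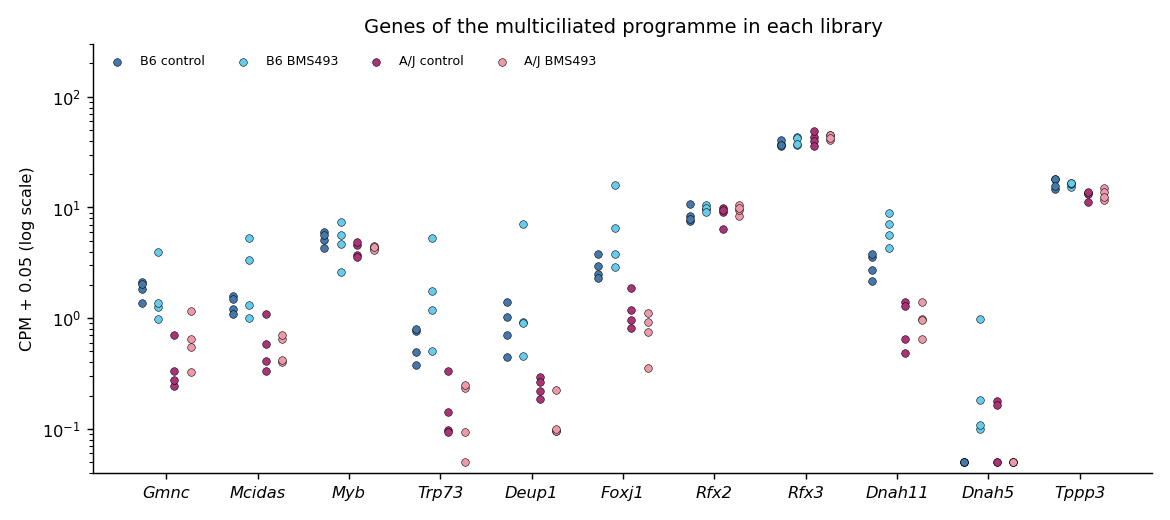
CPM plus 0.05 (y axis, log scale) of 11 genes of the multiciliated programme in each library, coloured by group. Mcidas, Trp73, Deup1 and Foxj1 are lower in each A/J library than in each B6 library of the same treatment. Gmnc is so in control lungs only, and Rfx2 and Rfx3 overlap between all groups. For Dnah11 and Myb the plotted column holds 0.105 and 0.693 of the counts of the summed stranded columns.

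Among 20 basal genes 17 were tested, and 1 was called lower in A/J control lungs, near the share of all genes. It was Itga6, an integrin subunit of the basement membrane contact, at -0.67 (adjusted p = 1.18e-06). In BMS493 lungs 6 were called lower, among them Itga6 at -0.75 (adjusted p = 2.13e-07), Krt15, and Bcam at -0.63 (adjusted p = 0.0152). Itga6, an integrin gene, and Bcam, a laminin-binding adhesion gene, are expressed along the whole lung epithelium or beyond it and do not mark basal cells alone. The medians were -0.14 and -0.25. Without B6 BMS493 replicate 2, 2 basal genes were called lower in BMS493 lungs, and without B6 BMS493 replicate 3 or A/J BMS493 replicate 1, 3 or 4 there were 3. Without B6 BMS493 replicate 2 the share of all genes called was lower too, as given above with the secretory genes. It is not given for the other fits, so nothing particular to basal genes is read from this drop. In control lungs 2 were called without A/J control replicate 3, and over all 20 alternative fits the count called ran from 1 to 7. Bcam was not called without replicate 2 (adjusted p = 0.0504) or without replicate 3 (adjusted p = 0.0558).

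All 27 airway progenitor regulators, the list that holds Sox2, were tested. In A/J control lungs 6 were called lower and 0 higher, with a median of -0.17, and in BMS493 lungs 8 were lower and 1 higher, with a median of -0.20. Elf5, an ETS factor of the lung epithelium, was the lowest, at 13.9 ± 0.564 CPM in B6 control and 4.60 ± 0.548 in A/J control (-1.60, adjusted p = 2.73e-07) and at -1.94 in BMS493 lungs (adjusted p = 9.03e-09). Tfcp2l1, a grainyhead-like factor, was at -0.93 (adjusted p = 0.00445) and -1.20 (adjusted p = 0.000264). The Notch ligand gene Dll1 was at -0.81 in control lungs (adjusted p = 0.00197), while Jag1, another Notch ligand gene, was the 1 gene called higher, at 0.29 in BMS493 lungs (adjusted p = 0.0205). Ehf, an ETS factor, was at -1.18 in BMS493 lungs (adjusted p = 0.00702), and was not called in a stranded column (adjusted p = 0.0835). With the pan-epithelial list held constant the calls of Ehf (-0.077, adjusted p = 0.972) and Tfcp2l1 (-0.58, adjusted p = 0.394) in BMS493 lungs and of Tfcp2l1 (-0.59, adjusted p = 0.133) and Dll1 (-0.56, adjusted p = 0.0753) in control lungs were lost, as was that of Jag1 (0.42, adjusted p = 0.0534). The Jag1 call was lost without B6 BMS493 replicate 1 or 4 or A/J BMS493 replicate 2 (adjusted p of up to 0.116).

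**Figure D4:**
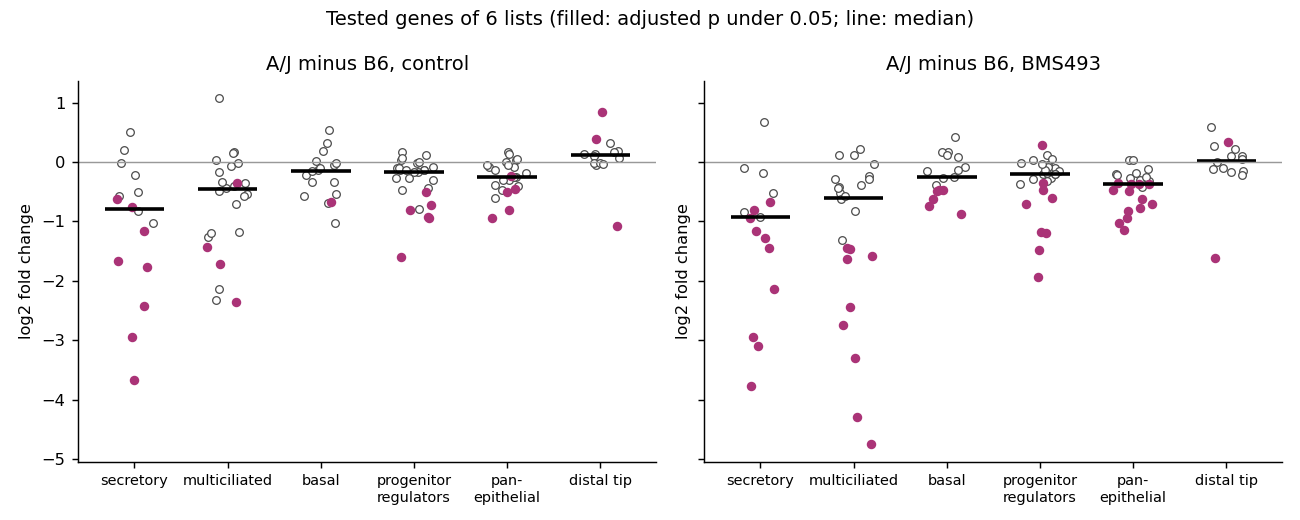
Log2 fold change of A/J against B6 (y axis) for each tested gene of the secretory, multiciliated, basal, progenitor regulator, pan-epithelial and distal tip lists (x axis) in control and BMS493 lungs, with filled points for an adjusted p under 0.05 and a line at the median. The secretory list has a median of -0.79 and -0.93 in the 2 panels, and the distal tip list has a median of 0.12 and 0.03.

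Of 14 distal tip genes, all tested, 1 was called lower and 2 higher in A/J control lungs, with a median of 0.12, and 1 lower and 1 higher in BMS493 lungs. Of 13 tested surfactant and alveolar genes, 3 and 8 were lower, with medians of -0.46 and -1.03. These counts moved with single libraries: in control lungs 1 was called without A/J control replicate 4, and in BMS493 lungs 4 without B6 BMS493 replicate 2 (median -0.59) or A/J BMS493 replicate 3, and 5 without A/J BMS493 replicate 1 or 4. Of 24 pan-epithelial genes 5 and 13 were lower, with medians of -0.24 and -0.36. With the mean of the pan-epithelial list held constant, 7 secretory, 2 multiciliated, 1 basal and 2 progenitor regulator genes were called lower in control lungs, and 1 regulator gene higher, where 8.73% of all genes were called in either direction. In BMS493 lungs 3, 2, 1 and 2 were lower and 2 regulator genes higher, where 5.14% of all genes were called. Grhl2 and Elf3 are in both the pan-epithelial and the regulator list, so the regulator counts are not independent of that mean.

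With BMS493, edgeR called 0 genes of the 4 airway lists in either strain, beside 0.423% of all genes in B6 and 0.486% in A/J. The unadjusted p was under 0.05 in B6 for 3 of 16 secretory, 6 of 24 multiciliated, 3 of 17 basal and 4 of 27 regulator genes, beside 9.11% of all genes, and in A/J for 2, 0, 0 and 3, beside 6.23%. Without B6 BMS493 replicate 1, 2 multiciliated and 2 regulator genes were called higher in B6 (1.14% of all genes), and with no filter on low counts 5 multiciliated genes and 1 regulator gene were called. For the mean effect over both strains edgeR called 0 of 27 regulator genes, beside 1.37% of all genes, with 8 (7 higher) at an unadjusted p under 0.05, beside 10.8% of all genes. At that unadjusted p there were 2 secretory, 1 multiciliated and 3 basal genes. The main fit called 0 genes of these lists for the mean effect, and alternative fits up to 1 secretory, 0 multiciliated and up to 1 basal gene. DESeq2 called 2 regulator genes for the mean effect, and edgeR 3 with no filter on low counts, 2 without B6 BMS493 replicate 1 and 1 each without A/J control replicate 1, B6 control replicate 3 or A/J BMS493 replicate 3. Within single strains DESeq2 called 1 multiciliated gene (Dnah11, whose counting limit is given above) and 1 basal gene (Lamb3, a laminin subunit gene named here for that reason) in B6, and 0 in A/J. No share of all genes is given for DESeq2, for the fits with no filter on low counts or for the mean effect without 1 library. Nothing is read from the counts of those fits. The multiciliated median was 0.18 in B6 and -0.02 in A/J, and the secretory median 0.08 and -0.004. Without B6 BMS493 replicate 2 the medians in B6 were -0.063 for the multiciliated and 0.0017 for the secretory list, and 0.13 for the pan-epithelial list. The pan-epithelial list was at 0.25 in B6, with 22 of 24 genes above 0 and 0 called, and at 0.04 in A/J. By contrast, 5 of 12 tested retinoic acid targets were called lower in each strain.

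Each tested member was also read relative to the pan-epithelial list, as its log2 CPM minus the mean log2 CPM of the 24 genes in the same library. On this scale the A/J minus B6 difference of Scgb3a2 was -2.77 in control and -2.55 in BMS493 lungs, that of Cyp2f2 -2.93 and -2.14, and that of Foxj1 -1.01 and -2.51, each without overlap of the 4 and 4 libraries. Sox2 lay at -0.91 ± 0.0925 in B6 control and -1.32 ± 0.238 in B6 BMS493 lungs (SD, n = 4), a difference of -0.41 without overlap. This was the 1 treatment comparison of a tested member in which the groups did not overlap on this scale. The share of all genes without overlap on this scale was not computed, so the lack of overlap is a description. All other comparisons overlapped. An exact two-sided permutation test gave p = 0.0286 for each of these 7, the smallest value that 4 against 4 libraries allow, and an adjusted p of 0.098 over the 24 comparisons, so none passed. For Cyp2f2, tested only through its B6 values, nothing is read from this test. Krt15 was at -0.33 and -0.43 between the strains, with overlap, and Trp63 at 0.47 and 0.59, with overlap.

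Within groups, members and lists were related after the group mean was removed from each library, over 16 libraries and 51 relations. None passed after adjustment (lowest adjusted p = 0.0779 for r and 0.0561 for rho, permutation test). With the replicate block 7 of the 51 passed, and with a stranded column 9 did. The highest rho of Scgb3a2 was with the surfactant and alveolar list (Pearson r = 0.83, permutation p = 0.00543; Spearman rho = 0.88, permutation p = 0.0011), with r = 0.82 without the 2 libraries farthest on the Scgb3a2 axis. Scgb3a2 and the pan-epithelial list gave r = 0.82 (permutation p = 0.00917; rho = 0.82, permutation p = 0.00472), with r = 0.76 without the 2 farthest. Krt15 and the pan-epithelial list gave r = 0.76 (permutation p = 0.00212; rho = 0.80, permutation p = 0.00575), with r = 0.63 without the 2 farthest. Foxj1 and the pan-epithelial list gave r = 0.75 (permutation p = 0.0245; rho = 0.60, permutation p = 0.0621), which was 0.42 without B6 BMS493 replicates 1 and 2 and so rested on those libraries. Sox2 had r = 0.10 with the pan-epithelial list (permutation p = 0.759, and rho = 0.082 with permutation p = 0.787). The highest r of Sox2 was with the oesophagus and stratified epithelium list, at 0.61 (permutation p = 0.0279, adjusted p = 0.158). There rho was 0.63 (permutation p = 0.018), and r was 0.51 without the 2 farthest libraries. Whether neighbouring tissue enters the Sox2 values was not tested.

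**Figure D5:**
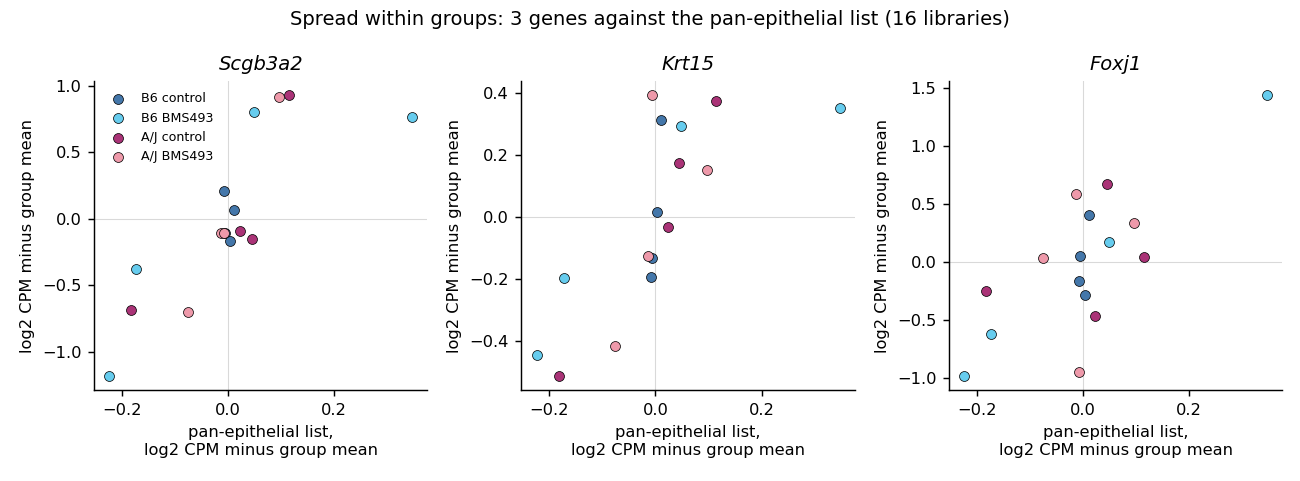
Log2 CPM minus the group mean of Scgb3a2, Krt15 and Foxj1 (y axis) against that of the pan-epithelial list (x axis) in 16 libraries, coloured by group. The r is 0.82 for Scgb3a2, 0.76 for Krt15 and 0.75 for Foxj1, and B6 BMS493 libraries take the ends of the x axis.

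The genes most like each member, by Pearson r of group-centred log2 CPM over the 16 libraries among 14344 genes searched, are given as a description with no test. All libraries share the depth, composition and treatment structure of the series. For Scgb3a2 they were Bcam (r = 0.92), Cavin1 (0.92) and Gas6 (0.91). For Krt15 they were Vstm4 (0.96), Dab1 (0.95) and Sfn (0.94), for Foxj1 Ypel1 (0.89) and Irf1 (0.89) among others, and for Cyp2f2 Gkn3 (0.90), Map1lc3b (0.89) and Cd200 (0.89). For Sox2 they were Rpl10a (0.86), Mnd1 (0.86) and Hint2 (0.86), and for Trp63 Dnajc16 (0.81), Osmr (0.79) and Car2 (0.79).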

How the data were processed

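Raw counts per gene were deposited by the authors, 1 file for each of the 16 libraries, with a column without strand and a column for each strand. FastQC, cutadapt, STAR and the build GRCm39 are named, without versions, per the submitters' processing notes, and the annotation is not given in the sources used here. The 4 lines that are not genes took 23.1% to 28.3% of fragments and were left out. The first strand column held 51.0% to 52.0% of stranded counts, so the column without strand was used. In STAR's layout a read over genes on both strands is ambiguous in that column. Symbols and exon lengths came from GENCODE M21 (51884 of 57180 identifiers matched). Every per-sample column was mapped to a sample.

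In R 4.3.3 with edgeR 4.0.16, filterByExpr kept 17276 genes for testing (39904 removed) and TMM set the scaling. All 16 libraries entered 1 robust quasi-likelihood fit with a coefficient for every group (12 residual degrees of freedom), with Benjamini-Hochberg adjustment over all genes tested. Calls are at an adjusted p below 0.05. SE and 95% intervals are from the same model. Log values used a prior count of 2. Permutation tests and figures used Python 3.11.15, scipy 1.17.1 and matplotlib 3.10.9, with 100000 resamples for relations. DESeq2 1.42.0 was an alternative. On simulated data for A/J against B6 control (16982 genes), 79.4% of 97 genes changed by 1 on the log2 scale and 92.9% of 98 changed by 2 were called, and 4.55% of calls were unchanged genes.

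The members and lists were chosen with earlier results of these data known. All members were named. Of each airway list, up to 4 called genes with the highest and 4 with the lowest fold change were named per comparison, and for likeness the 3 genes with the highest r. Some genes that meet this rule are not reported here by name, and counts and medians of lists include them. Counting floors cover counting error only: the labels name no molecular identifiers, and PCR copies are then counted with their source molecules.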

Additional observations from a re-analysis of the deposited data

Results flagged for a closer look

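In 1 of 25 groups of 4 values tested with Dixon's criterion, 1 library lay far from the others. Scgb1a1 in B6 control was at 0.0656 CPM in replicate 4, from 1 count, and at 0 in the other 3 libraries. Chance passes this criterion in about 1 in 20 groups. A value from 1 count is within counting error of 0.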

How the results depend on the processing

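The counts of called members were 0 with BMS493 in B6, in A/J, in the mean of both and in the difference under every alternative and without any 1 library (0 to 0). Between control strains the count was 2 to 3 without 1 library and 4 with only the 8 libraries compared. In BMS493 lungs it was 4 without any 1 library and 2 with the pan-epithelial or with the surfactant and alveolar list as a covariate (covariates and summed or other strand columns were added after the data were seen). With only the 8 BMS493 libraries Cyp2f2 fell under the filter. The replicate numbers of the labels did not pair libraries (correlations of same-numbered deviations from -0.15 to 0.14). With the replicate block, Foxj1 passed between control strains (-1.36, adjusted p = 0.0242) and 7 of the 51 relations passed, as did 9 with a stranded column, against 0 otherwise. Krt15 between control strains passed without a filter (adjusted p = 0.0255). The surfactant covariate ended the calls of Krt15 (-0.28, adjusted p = 0.692) and Cyp2f2 (-1.56, adjusted p = 0.281) in BMS493 lungs. The library set (replicates 1 and 2 against 3 and 4) as a covariate changed no call of a member.

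The values that follow here, except that of Bcam, are log2 differences of members that were not called there. All are from fits where the sign differed from the reported one. With the pan-epithelial and the surfactant covariate, Scgb3a2 was -0.55 and -0.44 with BMS493 in B6, and -0.25 and -0.22 in the mean of both strains, where Foxj1 was -0.30 and -0.21. For the difference between strains these covariates gave 0.60 and 0.44 for Scgb3a2, 0.18 and 0.081 for Trp63 and 1.28 and 1.04 for Cyp2f2, and the first gave 0.021 for Krt15. The replicate block gave 0.0101 for Scgb3a2 and 0.27 for Cyp2f2, and a stranded column -0.095 for Sox2 and 0.079 for Scgb3a2. A stranded column also gave 0.055 for Sox2 and -0.039 for Trp63 between control strains and -0.11 for Trp63 between BMS493 strains. The other stranded column gave -0.12 for Scgb3a2 in A/J and 0.0245 for Sox2 between BMS493 strains, where the pan-epithelial covariate gave 0.042 for Sox2. That covariate turned the called Bcam difference in BMS493 lungs to 0.033. The cause was not tested.

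Leaving out 1 library at a time, the BMS493 value in B6 ran from -0.40 to 0.31 for Trp63 and -0.20 to 0.074 for Krt15. In A/J it ran from -0.18 to 0.0095 for Sox2, -0.25 to 0.63 for Scgb3a2, -0.38 to 0.032 for Trp63 and -0.82 to 0.017 for Cyp2f2. The mean effect ran from -0.018 to 0.52 for Foxj1 and -0.28 to 0.074 for Trp63. The difference between strains ran from -0.60 to 0.28 for Scgb3a2, -0.47 to 0.24 for Trp63 and -0.47 to 0.80 for Cyp2f2. The strain difference ran from -0.084 to 0.60 for Trp63 in control lungs, and in BMS493 lungs from -0.087 to 0.10 for Sox2 and -0.092 to 0.43 for Trp63. Low counts limit Cyp2f2 in A/J and Trp63 in all groups.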
